A study of Mus musculus with 6 samples.

Results

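The large MAF factor gene Maf, the small MAF genes Maff, Mafg and Mafk, and the BACH genes Bach1 and Bach2 were followed through H3K27ac peak lists of mouse alveolar macrophages (AMs). They are 6 of the 21755 protein-coding genes of the annotation on 20 chromosomes. For each gene, peaks were taken within 1 kb of a transcription start site (TSS), inside the gene body and up to 100 kb either side. Peaks of the 3 libraries that shared at least 1 bp were joined into regions, which gave 118 regions at the 6 genes of 58117 in the genome. The 6 genes were chosen as family members with no threshold on their signal, but with earlier results of these data known. The large MAF genes Mafa and Nrl are not among them and are counted below with the partner genes.

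AMs are the resident macrophages of the air spaces, and acetylation of histone H3 at lysine 27 marks active promoters and enhancers. The cells came from bronchoalveolar lavage of wild-type C57BL/6J mice, 9 weeks old per the study's methods, and were sorted by flow cytometry before HT-ChIPmentation, a chromatin immunoprecipitation in which the transposase Tn5 adds sequencing adapters on the beads. The Active Motif library used antibody #39135, the 2 Cell Signaling libraries used antibody #8173, and the 3 inputs carried no antibody and served as the background of the authors' peak calling. All groups shared genotype and cell type, there was no treatment, and the labels do not say whether libraries came from separate animals or pools.

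MAF and BACH proteins are basic leucine zipper factors that bind DNA as dimers. Large MAF factors such as c-MAF, encoded by Maf, carry an activation domain and are tied to holding mature macrophages out of the cell cycle, and AMs are known for low levels of c-MAF. Small MAF factors lack that domain. They pair with cap'n'collar factors such as NRF2 to activate antioxidant genes, or with BACH1 and BACH2 to repress them, and heme releases BACH1 from its targets, among them Hmox1. BACH2 is best known in lymphocytes and has also been tied to AM function.

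Each library was 1 peak list, so values are given per library in the order Active Motif, Cell Signaling replicate 1 and Cell Signaling replicate 2, with no error and no test. Fold is the enrichment of a peak over its local background as the authors' caller wrote it. The lists held 36364, 56175 and 49139 peaks, and their median fold was 5.97, 5.38 and 7.19. Fold is compared between genes only within a library, because antibody, sequencing run and depth cannot be told apart. An absent peak means only that none passed the authors' threshold in that library. AM markers were acetylated at the promoter for 9, 10 and 10 of 10 genes, Krt79 being the gene without an Active Motif peak. Markers of other cells had promoter peaks at 1, 2 and 2 of 7 B cell genes, 0, 1 and 1 of 8 T and NK cell genes, 1, 1 and 3 of 10 interstitial macrophage and monocyte genes, 1, 2 and 3 of 6 neutrophil genes, and 0, 7 and 1 of 8 lung epithelial genes. The share of all protein-coding genes with a promoter peak was 40.9%, 47.9% and 48.9%, so the neutrophil count in Cell Signaling replicate 2 was near that share. In Cell Signaling replicate 1 the 7 epithelial promoters had folds between 4.23 and 8.07.

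The sequences that follow are promoter stretches of Maff, Mafk and Bach1 and a stretch before an internal start of Bach2. Mafg and the third Maff start are not printed, so the set does not cover the whole family. RefSeq promoter windows of 300 bases (build GRCm38.p6, the assembly of the peak coordinates) were matched for 5 of the 6 genes, with 7 windows because Maff has 3. Maf had no entry. Only the longest stretch before the RefSeq start that no annotated exon covers is printed, on the plus strand, which is the strand of these genes. Capitals mark matches to the MARE core TGCTGA, one arm of the palindrome that MAF dimers bind, the antioxidant response element core TGACNNNGC, the cAMP response element TGACGTCA, the AP-1 site TGANTCA, the C/EBP site TTGCNNAA and the PU.1 site GAGGAAGT on either strand. These letters can overlap, since the AP-1 match TGACTCA followed by GC also spells the antioxidant core.
Maff, first start, chr15:79346371-79346620: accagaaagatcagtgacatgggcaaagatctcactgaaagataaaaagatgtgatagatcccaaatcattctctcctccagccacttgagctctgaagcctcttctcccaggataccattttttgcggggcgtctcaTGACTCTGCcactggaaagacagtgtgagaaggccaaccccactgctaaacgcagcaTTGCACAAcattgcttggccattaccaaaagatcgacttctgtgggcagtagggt
Maff, second start, chr15:79347270-79347519: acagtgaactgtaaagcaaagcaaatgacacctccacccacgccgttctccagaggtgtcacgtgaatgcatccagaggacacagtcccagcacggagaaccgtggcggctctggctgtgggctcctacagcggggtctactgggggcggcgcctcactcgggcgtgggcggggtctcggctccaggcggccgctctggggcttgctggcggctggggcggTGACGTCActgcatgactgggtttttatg
Mafk, chr5:139791286-139791512: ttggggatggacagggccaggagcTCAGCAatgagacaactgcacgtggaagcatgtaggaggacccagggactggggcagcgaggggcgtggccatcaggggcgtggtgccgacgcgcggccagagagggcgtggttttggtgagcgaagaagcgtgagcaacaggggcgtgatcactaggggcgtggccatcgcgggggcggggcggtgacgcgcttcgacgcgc
Bach1, chr16:87698704-87698944: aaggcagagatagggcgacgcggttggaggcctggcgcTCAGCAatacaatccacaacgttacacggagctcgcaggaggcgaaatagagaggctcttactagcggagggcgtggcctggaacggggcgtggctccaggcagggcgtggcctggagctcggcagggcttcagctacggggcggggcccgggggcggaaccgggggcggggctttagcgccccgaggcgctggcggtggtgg
Bach2, internal start, chr4:32417185-32417434: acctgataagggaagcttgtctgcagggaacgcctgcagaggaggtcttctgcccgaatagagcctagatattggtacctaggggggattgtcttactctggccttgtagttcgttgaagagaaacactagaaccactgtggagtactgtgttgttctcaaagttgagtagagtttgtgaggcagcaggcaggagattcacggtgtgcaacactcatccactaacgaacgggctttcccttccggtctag

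Mafg, Mafk and Bach1 had CpG-rich windows, and the first Maff start and the internal Bach2 start did not. No window covered the annotated 5′ end of Bach2, so its CpG content was not read. Over the whole 300 bases the windows held 39 CpG for Mafg, 31 for Mafk and 31 for Bach1, against a median of 7 over all 32619 windows. The 3 Maff windows held 5, 21 and 14 CpG, and the window at the internal Bach2 start held 7. The MARE core was present in 2 of the 7 windows (Mafk and Bach1) and in 19.5% of all windows. The antioxidant core was present in 3 of the 7 (the first Maff start, Mafg and Mafk, the last 2 outside the printed stretches) and in 12.4% of all windows. The second Maff start carried the cAMP response element, which 1.8% of all windows hold, and the first carried the C/EBP letters, which 10.9% hold. AP-1 and PU.1 letters, found in 7.85% and 3.22% of all windows, were in none of the 7. A match is a description of the letters and not a bound site.

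Promoter acetylation split the family into 5 genes with a peak and 1 without. Maf, Maff, Mafg, Mafk and Bach1 each had a promoter peak in all 3 libraries, and Bach2 had none in any. Among all protein-coding genes, a promoter peak was present in 40.9%, 47.9% and 48.9% per library and in 40.8% in all 3. With 6 genes of 1 family, the count of 5 of 6 is given beside these shares as a description.

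Maf, the large MAF gene of the 6, had the weakest promoter of the 5. Its fold was 7.25, 7.30 and 11.3, which placed it at percentiles 24.5, 14.9 and 13.8 among the genes with a promoter peak in that library. The peak was also narrow, at 347, 394 and 778 bp against medians of 956, 1450 and 1737 bp over all such genes. It lay on the annotated 5′ end of Maf in every library and on no other gene. The fold in Cell Signaling replicate 1 lay within the range of the epithelial marker promoters of that library. In the Active Motif library 0 of the 8 epithelial promoters had a peak, and in Cell Signaling replicate 2 only Epcam had one (fold 7.07). Some markers of other cells also had promoter peaks there. Examples were Csf3r (8.83) and Cd22 (9.35) in the Active Motif library. In Cell Signaling replicate 2, Ccr2 (6.71) and Cx3cr1 (5.42) lay below the Maf fold, and Cd22 (20.3) and Ms4a1 (41.2) above it. The part of other cells in the Maf value was not tested.

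The small MAF genes, which encode the partners of NRF2 and BACH1, all stood above the median promoter in every library. Maff had a fold of 17.6, 55.4 and 52.2 (percentiles 77.0, 95.2 and 97.6). Mafg had 16.6, 34.6 and 31.1 (percentiles 73.8, 77.7 and 60.2). Mafk had 17.4, 31.9 and 33.5 (percentiles 76.2, 74.0 and 66.4). The 3 genes were close together in the Active Motif library within 1 kb of a TSS, though Maff reached 27.2 there with a window of 3 kb, and Maff stood above the other two in both Cell Signaling libraries.

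Every small MAF promoter had a higher fold than Maf in every library. The smallest gap was to Mafg in the Active Motif library and in Cell Signaling replicate 2, at 2.29 and 2.75 times the Maf fold, and to Mafk in Cell Signaling replicate 1, at 4.37 times. The largest gap was to Maff in all 3 libraries, at 2.43, 7.58 and 4.62 times. The medians of all genes with a promoter peak were 11.1, 19.2 and 26.9, so Maf lay below and each small MAF gene above the median in all 3.

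Bach1, the heme-regulated repressor, had the highest fold of the family in the Active Motif library and only the fourth in Cell Signaling replicate 2. With a promoter window of 3 kb in place of 1 kb, Maff had a fold of 27.2 in the Active Motif library and stood above Bach1 there. The Bach1 fold was 20.6, 46.9 and 27.7, at percentiles 84.4, 90.2 and 51.9. The 2 Cell Signaling libraries thus placed the same promoter differently, which limits any rank of Bach1 within the family. The peaks were 1874, 2608 and 3189 bp wide. The printed Bach1 promoter window lay wholly inside the peak in both Cell Signaling libraries and wholly outside it in the Active Motif library, where the nearest peak began 61 bp past the 5′ end.

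**Figure D1:**
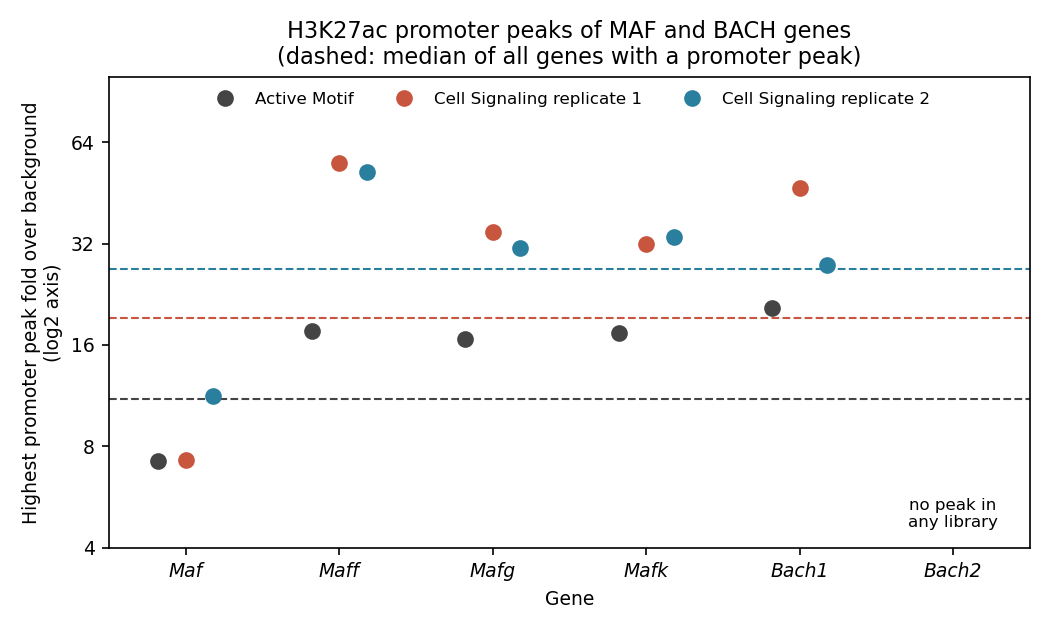
Highest fold over background of the H3K27ac peaks within 1 kb of a TSS (log2 axis) for the 6 genes, 1 point per library, with the median of all genes with a promoter peak in each library as a dashed line of the same colour. Maf lies below the line of its library and Maff, Mafg and Mafk above it in all 3 libraries, and Bach2 has no point.

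The acetylated stretch at Maff was among the broadest at any promoter. The promoter peak measured 3470, 13029 and 16509 bp, at percentiles 95.5, 99.6 and 99.5 of all promoter peak widths. Peaks covered 91.0%, 99.3% and 100% of the 12.5 kb gene body, and the joined region chr15:79345694-79362202 ran past both ends of the gene, into the 3′ end of Tmem184b. In the Active Motif library the same stretch was cut into 5 peaks over the gene body, and the highest of the region had a fold of 27.2. Mafk was next in width among the small MAF genes in every library, with 1770, 3743 and 4855 bp. Mafg had 1679, 1814 and 2183 bp, and a second Mafg region, chr11:120629533-120631395 at its internal starts, had folds of 6.40, 21.5 and 23.6.

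The surroundings of the genes differed more than their promoters. A peak overlapped the gene body of all 6 genes in every library, against 42.6%, 52.7% and 53.4% of all protein-coding genes. In every gene with a promoter peak, that peak itself reached into the body. The count therefore repeats the promoter result except at Bach2. Counted over the flanks of 100 kb, Maf had 0, 0 and 0 peaks, Mafk 1, 3 and 3, Bach2 2, 5 and 2, Mafg 12, 21 and 17, Bach1 12, 18 and 22, and Maff 24, 30 and 25. Neighbouring genes share these windows, with 7 other protein-coding genes at Maff, 19 at Mafg, 5 at Mafk, 3 at Bach2 and none at Maf and Bach1.

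Maf and Bach1, the 2 genes alone in their windows, were opposites. The single region at Maf, chr8:115707492-115708269, was its promoter peak, and no other peak of any library fell in its body or flanks. Of the 994 genes with no other protein-coding gene in the window, 62.0% also had no flank peak in any library. Among the 232 of these with a promoter peak in all 3 libraries, as Maf has, the share was 15.5% (36 genes). Bach1 had flank peak counts at percentiles 91.4, 92.7 and 94.4 of the same 232 genes, whose medians were 1, 3 and 3.

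**Figure D2:**
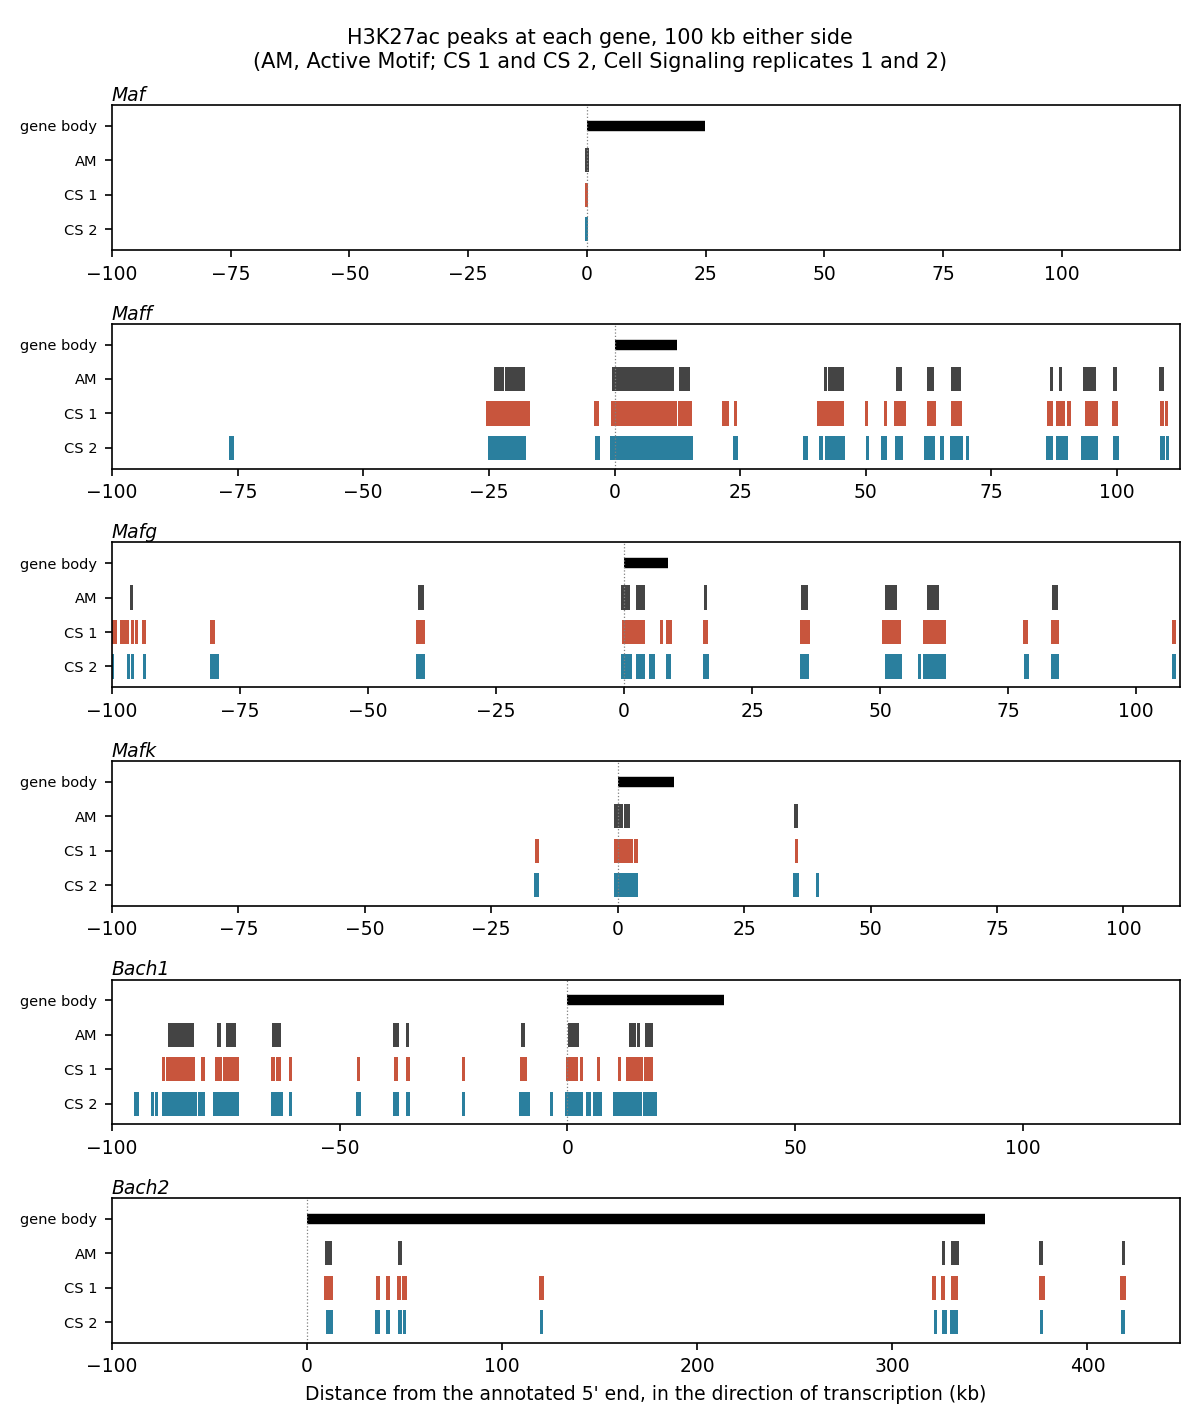
Peaks of each library at the 6 genes, drawn by distance from the annotated 5′ end in kb in the direction of transcription, with the gene body as a black bar (very short peaks are widened to stay visible). Maf has its 1 promoter peak alone, Bach1 has peaks upstream and in its first part with none beyond its 3′ end, and Bach2 has intronic peaks near both ends but none at the start.

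Bach1 had 37 regions, 1 at its promoter, 14 in its body and 22 upstream. None lay downstream and none at the promoter of another protein-coding gene, although 2 upstream regions lay within 1 kb of the start of the small nuclear RNA gene Gm22808. The strongest in every library was not the promoter but chr16:87610012-87617593, 7582 bp wide and centred 85.1 kb upstream, with folds of 37.5, 70.0 and 55.9. Its nearest protein-coding TSS was that of Map3k7cl, 60.5 kb away, so its target gene is not given by position. A second upstream region, centred 73.9 kb from the 5′ end, had folds of 15.2, 52.7 and 45.4. The region nearest to the gene among those in all 3 libraries was chr16:87688356-87690091, 9.72 kb upstream, with folds of 16.6, 26.7 and 28.5. Inside the first part of the gene, an intronic region centred 14.5 kb from the 5′ end had folds of 6.87, 25.4 and 24.0.

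Bach2 had no promoter peak but many peaks in its introns. The 5′ end of this 347 kb gene lay 9.95, 9.70 and 9.85 kb from the nearest peak. Its body held 10, 16 and 12 peaks. A body peak in all 3 libraries was seen in 4.78% of the 10832 genes with no promoter peak in any library, or 518 genes. Among those 518, Bach2 stood at percentiles 94.8, 95.9 and 94.4 for the number of body peaks, where the medians were 2, 2 and 2. The covered share of its body was near the middle of the same genes, at percentiles 53.1, 46.9 and 42.9.

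The 4 body regions of Bach2 found in all 3 libraries lay toward either end of the gene. The strongest body region in the Active Motif library and Cell Signaling replicate 1, chr4:32248649-32251992, was centred 11.5 kb past the 5′ end and had folds of 26.2, 46.5 and 23.3. It also lay within 1 kb of the start of the noncoding gene Bach2it1. A weaker region centred 47.6 kb from the 5′ end had folds of 4.69, 5.02 and 8.36. Near the 3′ end, chr4:32563827-32565762, centred 326 kb from the 5′ end, had folds of 11.4, 35.7 and 34.2, the last being the highest of the body in Cell Signaling replicate 2. The next region, chr4:32568985-32572327, lay at the start of the noncoding gene Bach2os and had folds of 9.15, 31.9 and 14.1. The 3 flank regions were at the promoters of Casp8ap2 and Mdn1, and the Mdn1 region had the highest fold of the window in Cell Signaling replicate 2, at 41.2. The basic annotation gives Bach2 3 start positions. When the comprehensive annotation was used instead, a choice made after seeing the data, an additional start at position 32247764 of chromosome 4 lay 989, 744 and 885 bp from the nearest peak, and all 6 genes then counted as having a promoter peak. B cell markers with a promoter peak were Cd22 in all 3 libraries (folds 9.35, 26.5 and 20.3) and Ms4a1 in the Cell Signaling libraries (4.18 and 41.2). In Cell Signaling replicate 2 the Ms4a1 fold was above that of every Bach2 body region. Cd79a, Cd79b, Pax5, Blk and Ebf1 had none, and neither did the T cell markers Cd3e, Cd3d, Cd3g, Cd4, Cd8a, Lck and Tcf7. Of the 16 Bach2 regions, 6 had a peak in the Active Motif library, where Cd22 was the only lymphocyte marker with a promoter peak. In the gene body, however, that library also had 3 peaks at Ms4a1, 2 at Cd3d, 1 at Cd79a and 1 at Lck. The part of other cells in the Bach2 signal was not tested.

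Windows of 200 bases were read on the plus strand at the summit of the strongest Cell Signaling replicate 1 peak in the regions that lead the description of Bach1 and Bach2, with the same capitals.
Bach1, 82.8 kb upstream, chr16:87616008-87616207: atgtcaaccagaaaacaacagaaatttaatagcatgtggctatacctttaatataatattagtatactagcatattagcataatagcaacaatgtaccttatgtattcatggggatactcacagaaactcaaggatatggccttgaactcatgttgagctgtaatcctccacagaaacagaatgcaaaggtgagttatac
Bach1, 9.66 kb upstream, chr16:87689187-87689386: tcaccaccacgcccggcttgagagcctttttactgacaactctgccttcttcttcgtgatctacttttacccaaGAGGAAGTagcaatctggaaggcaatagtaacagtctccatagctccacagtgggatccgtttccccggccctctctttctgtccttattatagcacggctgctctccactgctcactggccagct
Bach2, intron, 12.0 kb from the 5′ end, chr4:32250702-32250901: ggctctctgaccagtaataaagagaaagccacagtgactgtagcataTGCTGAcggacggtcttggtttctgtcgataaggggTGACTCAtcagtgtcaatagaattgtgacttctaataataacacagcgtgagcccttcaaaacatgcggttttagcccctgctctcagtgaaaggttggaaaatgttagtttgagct
Bach2, intron, 326 kb from the 5′ end, chr4:32565056-32565255: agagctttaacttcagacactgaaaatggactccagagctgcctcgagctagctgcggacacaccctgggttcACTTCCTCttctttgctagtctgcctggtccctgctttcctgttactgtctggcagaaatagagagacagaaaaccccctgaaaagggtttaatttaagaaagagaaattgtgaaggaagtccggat

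The first Bach1 window, from the strongest region, held none of the 6 motifs, had no CpG and was 34.5% G or C. The second Bach1 window and the Bach2 window near the 3′ end each held the PU.1 letters. PU.1 is the factor that defines macrophage enhancers in general. Around Maff, Mafg, Bach1 and Bach2, 20 such windows lay over 1 kb from any start (Maf and Mafk had none), and 4 of them held the PU.1 letters, against 5.23% of the 9822 windows treated alike in the genome. AP-1 letters were in 3 of the 20 and in 9.96% of the genome's windows. The MARE core was in 3 of the 20 and in 14.1%. The antioxidant core was in 4 of the 20 and in 8.18%. C/EBP letters were in 3 of the 20 and in 11.4%, and the cAMP response element in 0 of the 20 and in 0.407%. The Bach2 window 12.0 kb from the 5′ end is not among the 20, since it lies near the start of Bach2it1, and it held both a MARE core and an AP-1 match. With 20 windows from few genes, these counts describe the letters at hand.

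Most regions around Mafg and around Maff lay nearest to the start of a neighbouring gene. Of 28 regions at Mafg, 14 lay at promoters of other genes and 5 were nearest to a Mafg start. The strongest were at P4hb in the Active Motif library and Cell Signaling replicate 2 (folds 19.4 and 47.6) and at Arhgdia in Cell Signaling replicate 1 (45.7). Of 32 regions at Maff, 4 lay at promoters of other genes and 6 were nearest to Maff. The strongest in every library, chr15:79321359-79329226, was centred 21.3 kb upstream at the promoter of Pla2g6, with folds of 34.9, 78.0 and 57.0. Mafk had 4 regions, and its strongest in every library was its own promoter, chr5:139790726-139795601.

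**Figure D3:**
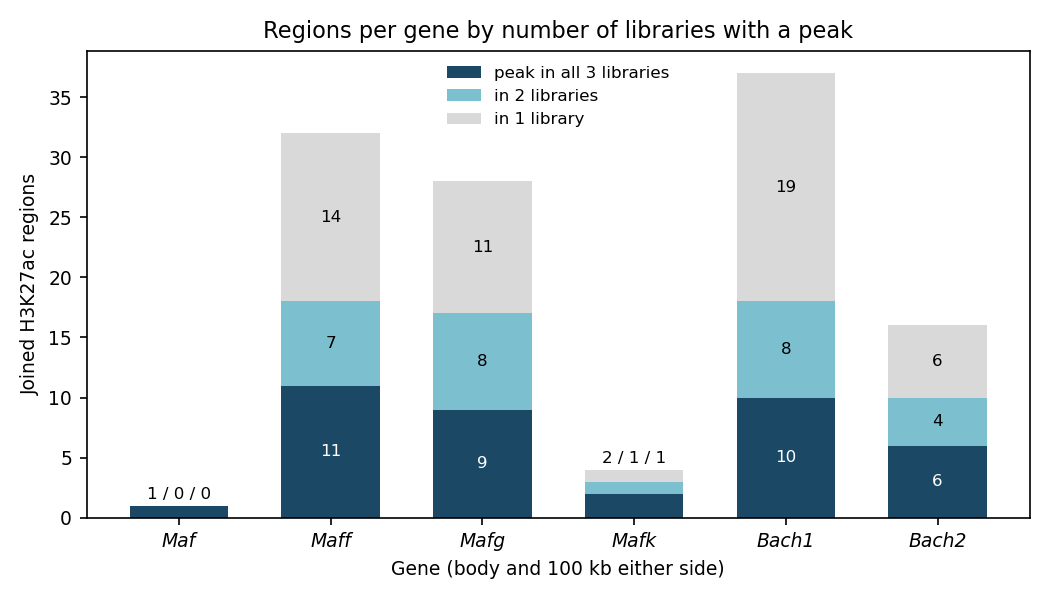
Joined H3K27ac regions in the gene body and 100 kb either side of each gene, stacked by the number of libraries with a peak there. For Maf and Mafk the 3 numbers above the bar are regions in all 3, in 2 and in 1 library, and Bach1 has the most regions with 37, of which 19 were in 1 library.

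The share of regions found in every library was similar at these genes and across the genome. Of the 118 regions, 39 had a peak in all 3 libraries, which is 33.1% (95% Wilson interval 25.2 to 42.0, counting error only), against 31.0% of all 58117 regions. By gene, the regions in all 3 libraries numbered 1 of 1 at Maf, 11 of 32 at Maff, 9 of 28 at Mafg, 2 of 4 at Mafk, 10 of 37 at Bach1 and 6 of 16 at Bach2. No region of the 6 genes was found in the Active Motif library alone, but the matching share over the genome is not given here. Among all protein-coding genes, 8883 of the 8901 with an Active Motif promoter peak had one in all 3 libraries. The absence is therefore not read as a trait of these genes. At Bach1, 19 regions had a peak only in Cell Signaling replicate 2, and the highest of their folds was 6.33, whereas the regions in all 3 libraries had a median fold of 22.8 in that library.

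Of the 7 partner genes, 3, 3 and 4 had a promoter peak, against 40.9%, 47.9% and 48.9% of all protein-coding genes. The list as a whole was thus near the share of all genes, and its members are only described. Those of the NRF2 pathway were marked, and the large MAF genes of eye and pancreas were not. Nfe2l2, which encodes NRF2, had promoter folds of 26.8, 48.8 and 47.3. Nfe2l1, a related activator, had 14.1, 34.6 and 38.3, and Keap1, the NRF2 inhibitor, had 14.9, 31.1 and 37.3. The large MAF genes Mafa and Nrl and the cap'n'collar gene Nfe2l3 had no promoter peak in any library, and Nfe2, an erythroid member, had one only in Cell Signaling replicate 2 (fold 7.99).

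Genes known as targets of BACH1, NRF2 or small MAF factors were acetylated at 18, 21 and 21 of 22 promoters, and at 18 in all 3 libraries. Among all protein-coding genes the shares were 40.9%, 47.9% and 48.9%, and 40.8% in all 3. Hmox1, the heme oxygenase gene that BACH1 represses, had folds of 8.46, 18.1 and 27.5. The iron storage genes Fth1 and Ftl1 had 37.8, 59.6 and 47.8, and 39.3, 50.5 and 45.4. The 4 exceptions lacked an Active Motif peak. Nqo1, a quinone reductase, had 10.4 and 7.99 in the Cell Signaling libraries, and Osgin1 had 9.61 and 7.42. Slc40a1, the iron exporter, had a peak only in Cell Signaling replicate 2 (3.96), and Me1, malic enzyme, only in replicate 1 (3.84).

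The list of genes typical of resident macrophages rich in c-MAF was marked at 1 of 12 promoters in each library. The exception was Mrc1, the mannose receptor gene, with 26.0, 48.8 and 43.4. Among all protein-coding genes the shares with a promoter peak were 40.9%, 47.9% and 48.9%. C1qa, C1qb, C1qc, which encode complement C1q, and Cd163, a scavenger receptor gene, were among the 11 without a peak in any library. C1qa, C1qb, C1qc, Mrc1, F13a1, Folr2 and Lyve1 were also counted above as interstitial macrophage and monocyte markers. The counts of these lists are therefore not separate results. The self-renewal genes described as held down by large MAF factors were marked at 3 of 3 promoters, with Myc at 11.5, 26.5 and 33.9, Klf2 at 25.6, 32.3 and 35.5, and Klf4 at 37.1, 59.6 and 51.5.

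**Figure D4:**
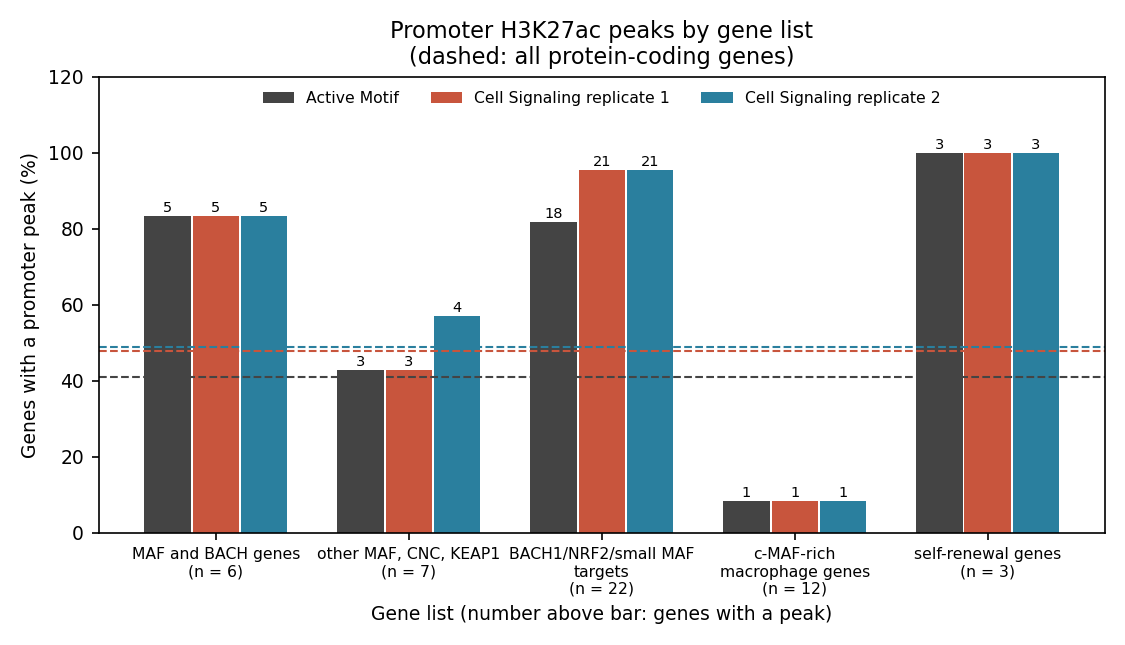
Share of genes with a promoter H3K27ac peak in each library for the 6 genes and 4 lists of related genes, in %, with the number of genes above each bar and the share of all protein-coding genes as dashed lines. The target list and the self-renewal list lie above the lines in all 3 libraries and the list of c-MAF-rich macrophages lies below them with 1 of 12 genes.

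The promoters most like each member were found by the distance between log2 folds over the 3 libraries among the 8883 genes with a promoter peak in all 3. Maf was nearest to Adssl1 (distance 0.097), and 11 genes lay within 0.25. Maff was nearest to Canx (0.023) and Ilvbl (0.076), with 38 genes within 0.25. Mafg was nearest to Osgin2 (0.042) and Ranbp1 (0.051), with 130 genes. Mafk was nearest to Hic2 (0.036) and Hpdl (0.039), with 230 genes. Bach1 was nearest to Clasp2 (0.099) and Snx20 (0.128), with 17 genes. More genes thus lay within 0.25 of Mafg and Mafk than of Maff, Bach1 and Maf. No typical count over the 8883 genes is given, so these numbers are compared only with each other.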

How the data were processed

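H3K27ac was profiled by HT-ChIPmentation in sorted AMs. The study's methods describe trimming with Cutadapt, alignment to mm10 with Bowtie2 and peak calling with MACS3 against input at a q-value of 0.05. For the Cell Signaling libraries bcl2fastq 2.20.0.422 is listed in the submitters' processing notes. More than 1 sonicator was used for H3K27ac, and which library used which is not given in the sources used here. The authors deposited 1 peak list per library. Each deposited peak has a fold (a ratio over local background), the −log10 of its p-value and of its q-value, a score derived from the q-value and a summit offset. The lists hold no read counts, depth was not used, and inputs were not analysed on their own.

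Genes, exons and TSS came from the basic set of GENCODE vM21 (41249 TSS positions of 21755 protein-coding genes on 20 chromosomes), with coordinates counted from 1 on mm10. A promoter peak overlapped 1 kb either side of a TSS, and its highest fold was used. A region was classed as promoter, body, upstream or downstream. Promoter sequence came from the RefSeq table and distal sequence from the GRCm38.p6 genome, and 200 table windows checked equalled the genome. Scripts used Python 3.11.15, numpy 2.4.6, pandas 2.3.3 and scipy 1.17.1, and were tested on simulated data. No test was made between groups, because each library is 1 list. The 6 genes and all gene lists were chosen with earlier results of these data known. The genes named are the 6 members, the strongest region of each, list members against the majority where 5 or fewer and otherwise the first few (other regions, list genes and motif windows named were chosen after their values were seen), and the 2 genes with the nearest promoter folds. Alternatives were a q-value of 1e-05, other promoter windows, the 5′ end alone, equal numbers of peaks, 50 kb flanks, joining within 500 bp, 50% reciprocal overlap and nearest-TSS assignment. Some items of the lists and of the nearest genes are not reported here, and the list counts leave them out.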

Additional observations from a re-analysis of the deposited data

How the results depend on the processing

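Of 69 alternative values, 55 stayed within 1.5 times the count reported or within its interval, and 14 did not. The 55 include the promoter counts, where even a move from 5 to 6 genes stays within 1.5 times, and the single Maf region. Such values could hardly move, so the tally is no measure of robustness. The 5 genes with a promoter peak stayed 5 in each library at a q-value of 1e-05, with windows of 500 bp or 3 kb, with the 5′ end alone and with 36364 peaks per library. They became 6 only with the comprehensive annotation, an alternative chosen after seeing the data. Region counts moved most with the definition. At a q-value of 1e-05 Bach1 had 19 regions, and with equal numbers of peaks 21. Joining peaks within 500 bp gave 20 at Maff, 17 at Mafg and 17 at Bach1. Flanks of 50 kb gave 18 at Maff, 16 at Mafg and 23 at Bach1. Keeping only regions nearest to the gene's own start gave 6 at Maff, 5 at Mafg, 1 at Mafk and 8 at Bach2. Leaving out either Cell Signaling library kept each gene's count within 1.5 times, with Bach1 between 26 and 37. Fewer peaks, wider joining or a shorter window are by construction behind these counts. The share of regions in all 3 libraries was 42.3% at a q-value of 1e-05 and 46.9% with equal numbers of peaks, and the genome's share at the same settings was 41.3% and 44.9%. The Maff promoter fold in the Active Motif library moved from 17.6 to 27.2 with a window of 3 kb. No paired analysis was possible because the inputs that share replicate numbers with the Cell Signaling libraries were not analysed here as peak lists and no result comes from a test.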
